A study of Homo sapiens with 4 samples.

Results

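FOXA1, FOXA2 and FOXA3 are the 3 genes of the FOXA family, and their H3K27ac peaks were read in 4 cancer cell lines. A peak within 1 kb of a FOXA transcript start was taken as a promoter peak. A peak within 500 kb of FOXA1, or within 50 kb of FOXA2 or FOXA3, that lay further than 1 kb from the start of every annotated transcript was taken as distal. Under these rules 54 of the 251138 peaks belonged to the family, 22 each in COLO-205 and DU-145, 1 in SKOV-3 and 9 in OVCAR-3. All 3 genes were in the annotation and were examined in every line, beside 20090 protein-coding genes measured in the same way.

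FOXA proteins are forkhead transcription factors that can bind their sites on nucleosomes and open closed chromatin, for which they are called pioneer factors. FOXA1 and FOXA2 act early in the endoderm and in the liver, pancreas, lung and gut, FOXA3 is best known from the liver and gut, and FOXA1 also prepares binding sites for steroid hormone receptors in prostate and breast epithelium. H3K27ac, acetylation of lysine 27 on histone H3, is found at active promoters and enhancers. It says where chromatin is acetylated, and transcript or protein levels of the FOXA genes were not analysed here.

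The study profiled COLO-205, a colon cancer line, DU-145, a prostate cancer line, and OVCAR-3 and SKOV-3, both ovarian cancer lines. All were grown as cultures to near confluence, each in its own medium with FBS, so that medium and line cannot be told apart, and no treatment is named. Each line has 1 library, so no error between replicates can be given, no test between lines was made, and every interval below is an exact Poisson 95% interval for counting error only. The lists rest on 22400000 ChIP tags in SKOV-3 to 36000000 in DU-145, and the weakest summit that was still a peak held between 11 tags in SKOV-3 and 14 in DU-145, or 0.351 to 0.491 tags per 1000000 ChIP tags of its library (RPM). The SKOV-3 list is much the smallest, with 14001 peaks against 75468 to 85576 in the others.

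The labelled tissues were checked against promoter peaks of marker genes. A promoter peak was found at 51.3% of all protein-coding genes in COLO-205, 60.0% in DU-145, 31.7% in SKOV-3 and 60.7% in OVCAR-3, so a marker count near these shares says little. Of 8 colon markers, 5 were marked in COLO-205 (62.5%), CDX2 and VIL1 among them, against 1 or 2 in the other lines. All 7 ovarian markers were marked in OVCAR-3, with PAX8 at 31.3-fold enrichment, but only 2 of 7 (28.6%), PAX8 and SOX17, in SKOV-3, near the share of all genes and fewer than the 4 each of COLO-205 and DU-145 (57.1%). Of 5 prostate luminal markers DU-145 had 1, TMPRSS2, fewer than the 3 of COLO-205 and of OVCAR-3, and SKOV-3 had 0. The prostate label of DU-145 was therefore met by few of these promoters. All 4 epithelial markers were marked in COLO-205, DU-145 and OVCAR-3, and KRT8 and KRT18 in SKOV-3. Of the markers of blood and stromal cells, PTPRC and CD3E had no peak in any line, CD14 had 1 in DU-145 alone, and COL1A1, a collagen gene of fibroblasts, was marked in COLO-205, DU-145 and OVCAR-3 at 4.52- to 5.32-fold. PECAM1 was not matched in the annotation.

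The sequences that follow carry the contrasts described below, and all are given 5′ to 3′ on the minus strand, the coding strand of FOXA1 and FOXA2. The first is the stretch upstream of the main FOXA1 start, which lies under the promoter peaks of COLO-205, DU-145 and OVCAR-3, while that of SKOV-3 ends downstream of it. Its capitals mark the single match to a forkhead word, TGTTTAC or TGTTTGC read on either strand. The other 3 are 300-base windows centred on summits of distal peaks, and their capitals mark CpG dinucleotides. The DU-145 windows lie on either side of FOXA1, and the FOXA2 window belongs to COLO-205.
FOXA1 upstream of the main start, chr14:38064455-38064704, GRCh37, minus strand: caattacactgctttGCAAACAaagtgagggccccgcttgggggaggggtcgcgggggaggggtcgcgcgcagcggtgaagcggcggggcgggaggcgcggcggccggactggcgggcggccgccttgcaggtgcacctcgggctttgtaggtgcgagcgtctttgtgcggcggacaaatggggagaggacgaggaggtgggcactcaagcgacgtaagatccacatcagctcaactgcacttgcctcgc
FOXA1 3′ side, strongest distal peak of DU-145, chr14:38052735-38053034, GRCh37, minus strand: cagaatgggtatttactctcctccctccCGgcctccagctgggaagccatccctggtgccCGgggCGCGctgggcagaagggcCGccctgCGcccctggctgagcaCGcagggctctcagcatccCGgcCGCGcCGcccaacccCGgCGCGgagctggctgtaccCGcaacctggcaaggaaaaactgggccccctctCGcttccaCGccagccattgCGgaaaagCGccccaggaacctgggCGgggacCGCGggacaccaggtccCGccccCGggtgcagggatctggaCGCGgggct
FOXA1 5′ side, strongest distal peak of DU-145, chr14:38067772-38068071, GRCh37, minus strand: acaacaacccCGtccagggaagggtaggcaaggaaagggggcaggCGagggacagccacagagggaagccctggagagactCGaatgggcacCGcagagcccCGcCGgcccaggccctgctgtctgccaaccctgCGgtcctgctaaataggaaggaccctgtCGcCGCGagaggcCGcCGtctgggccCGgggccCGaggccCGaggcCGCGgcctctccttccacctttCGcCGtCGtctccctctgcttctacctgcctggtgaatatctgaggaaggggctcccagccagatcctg
FOXA2, strongest distal peak of COLO-205, chr20:22557573-22557872, GRCh37, minus strand: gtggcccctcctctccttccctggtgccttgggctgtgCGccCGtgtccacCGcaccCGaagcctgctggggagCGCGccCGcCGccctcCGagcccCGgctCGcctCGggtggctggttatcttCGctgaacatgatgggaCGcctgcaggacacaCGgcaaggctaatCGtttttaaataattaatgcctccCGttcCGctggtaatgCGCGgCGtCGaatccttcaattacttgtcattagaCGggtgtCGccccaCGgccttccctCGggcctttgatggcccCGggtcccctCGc

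The FOXA1 upstream sequence holds 26 CpG in 250 bases and has a GC content of 67.2%. Its forkhead match, GCAAACA, begins at position 16 counted from the 5′ end. The 3 distal windows of DU-145 and COLO-205 shown above hold 20 to 28 CpG at 64.0% to 71.7% GC. The FOXA1 upstream sequence also opens the FOXA1 promoter of the RefSeq promoter set (GRCh38.p14), which runs from 250 bases before to 50 bases after the start. That set held 2 of the 3 family members, FOXA1 and FOXA3. Their promoters contain 34 and 37 CpG in 300 bases, against a median of 14 over 35116 promoters. A forkhead word occurs in 7.17% of these promoters, in that of FOXA1 once and in that of FOXA3 not at all, and the AP-1 word TGANTCA occurs in 7.71%, in FOXA3 but not in FOXA1. A match describes letters in a window and shows no binding.

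FOXA1 was the family member with an acetylated promoter in all 4 lines. The gene (ENSG00000129514) lies on the minus strand at chr14:38058757-38065264 and has 5 annotated transcript starts, the main one at 38064454. While 24.7% of protein-coding genes had a promoter peak in no line, 25.2% had one in all 4, so a mark in every line is a common pattern. TTC6, on the opposite strand, starts at 38064834 within the same region, and the peak cannot be assigned to one of these genes.

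The FOXA1 promoter peak was strongest in DU-145. Its summit held 107 tags in DU-145, 43 in COLO-205, 31 in SKOV-3 and 37 in OVCAR-3. Scaled to the ChIP tags of each library, this is 2.97 RPM (95% interval 2.43 to 3.59) in DU-145, 1.44 (1.04 to 1.94) in COLO-205, 1.38 (0.94 to 1.96) in SKOV-3 and 1.08 (0.761 to 1.49) in OVCAR-3. DU-145 was thus 2.06 times COLO-205, 2.74 times OVCAR-3 and 2.14 times SKOV-3, without overlap of its interval with any of the others. The intervals of the other 3 lines overlapped one another, and these lines were not ranked. The fold enrichment is the ratio of summit pileup to local background within a library, with a small constant added to both. It was 11.2 in DU-145, 8.22 in COLO-205, 8.05 in SKOV-3 and 6.29 in OVCAR-3. The −log10 q was 71.9, 24.6, 17.8 and 17.6 in that order.

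**Figure D1:**
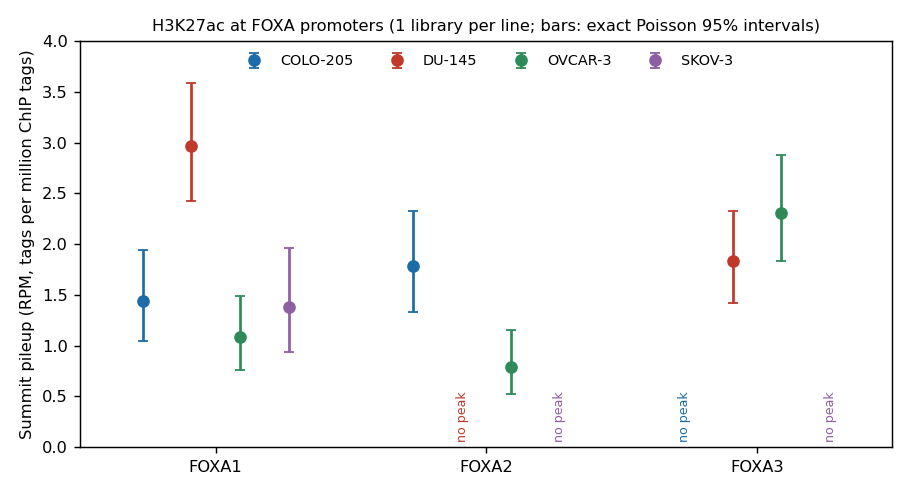
Summit pileup of the strongest promoter peak of each FOXA gene in each line, in RPM, with exact Poisson 95% intervals (counting error only). FOXA1 in DU-145 stands at 2.97, above the intervals of the other lines, and the FOXA3 points are peaks at the start of the neighbouring gene SYMPK.

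The scaled pileup also differs between libraries as a whole. Over all marked promoters its median was 1.86 RPM in DU-145, 1.41 in COLO-205, 1.74 in SKOV-3 and 2.46 in OVCAR-3. Chromosome 14 of DU-145 was by far the densest in peaks of that line, with 101 per Mb, 4.38 times the median chromosome, and the median marked promoter on it reached 2.33 RPM. Set against the chromosome 14 median of its own line, FOXA1 stood at 1.27 times in DU-145, 1.13 times in COLO-205, 0.861 times in SKOV-3 and 0.389 times in OVCAR-3. In DU-145, 7.72% of all marked promoters but 26.8% of those on chromosome 14 reached the FOXA1 value. The part of the chromosome-wide signal in the higher FOXA1 pileup of DU-145 was not tested. In OVCAR-3, 89.5% of marked promoters were at or above FOXA1, so there the promoter belonged to the weakly acetylated ones. With lists reduced to equal size, FOXA1 kept its promoter peak in 3 lines and lost it in OVCAR-3.

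The form of the promoter peak differed as well. It spanned 2294 bp in DU-145, 1360 bp in COLO-205, 427 bp in SKOV-3 and 1237 bp in OVCAR-3. The DU-145 peak (chr14:38063526-38065819) covered 4 of the 5 FOXA1 starts, the peaks of COLO-205 (chr14:38063710-38065069) and OVCAR-3 (chr14:38063821-38065057) covered 3, and the narrow SKOV-3 peak (chr14:38063750-38064176) covered 1 and ended 658 bp short of the TTC6 start. The summit lay 0.501 kb downstream of the main FOXA1 start in COLO-205 and 0.443 kb downstream in SKOV-3, but 0.615 kb upstream in DU-145 and 0.442 kb upstream in OVCAR-3, on the TTC6 side.

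In DU-145 the acetylation extended well beyond the promoter. Within 10 kb on either side of the 5′ end of FOXA1, peaks covered 8948 bp in DU-145, 2156 bp in COLO-205, 427 bp in SKOV-3 and 1601 bp in OVCAR-3. At least as many bases were covered around 0.687% of all protein-coding genes in DU-145, and around 7.14% of those on chromosome 14. In COLO-205 the corresponding shares were 5.48% and 2.44%, in OVCAR-3 19% and 30.0%, and in SKOV-3 18.3% and 32.6%. The coverage at FOXA1 was therefore uncommon in DU-145 and COLO-205, also among genes of the same chromosome, and more common in the ovarian lines.

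The 8948 bp of DU-145 came from 4 peaks, and another lay just outside the 10 kb. This outer one (chr14:38052463-38054792), 2330 bp wide with its summit 11.6 kb downstream of the start in sequence without an annotated gene, had a −log10 q of 55.2, an 8.0-fold enrichment and 2.89 RPM (2.36 to 3.5). This is the window with 26 CpG printed above. Within the 10 kb, the first peak (chr14:38056885-38058520) lay at the start of the lncRNA gene ENSG00000289903, just past the 3′ end of FOXA1, with 11.6-fold enrichment and 2.41 RPM (1.93 to 2.98). Another (chr14:38060474-38062423) lay in the FOXA1 gene body, with its summit in an exon, at 6.29-fold and 2.08 RPM (1.64 to 2.61). The promoter peak followed, and the last (chr14:38066722-38069789), the widest at 3068 bp, lay in the TTC6 gene, 3.47 kb upstream of the FOXA1 start, at 8.28-fold and 2.19 RPM (1.74 to 2.73). The intervals of all 4 neighbours overlap that of the promoter. Overlap of separate intervals is no test of a difference, and none was made between these peaks.

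The peaks on the 3′ side of the gene recurred in other lines. The region at 11.6 kb was the only distal region near FOXA1 with peaks in 3 lines. It held 28 tags in OVCAR-3, 24 in COLO-205 and 104 in DU-145, or 0.818 (0.544 to 1.18), 0.805 (0.516 to 1.2) and 2.89 RPM, and the summits of the 3 lines lay between 11.5 and 11.6 kb from the start. DU-145 was high, and COLO-205 and OVCAR-3 were low with almost equal values, at 2.69- and 3.04-fold enrichment respectively. Their −log10 q was 3.76 in COLO-205 and 5.43 in OVCAR-3, values that only 0.719% and 6.36% of the peaks of these lists did not exceed. At a −log10 q of at least 5 the COLO-205 peak was lost. The peak at the ENSG00000289903 start was likewise present in COLO-205 (1.01 RPM) and OVCAR-3 (1.11) and missing in SKOV-3. The gene body peak and the peak on the TTC6 side overlapped no peak of another line.

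**Figure D2:**
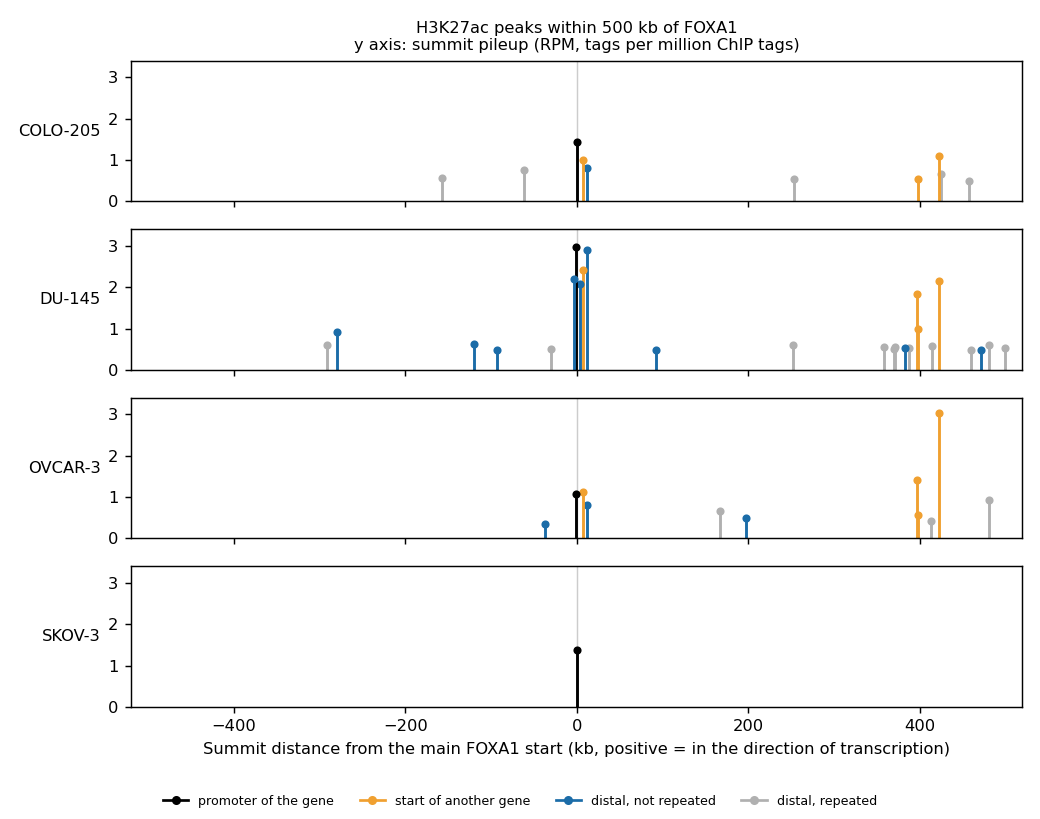
Position of each H3K27ac peak within 500 kb of FOXA1 in the 4 lines, as the distance of its summit from the main start in kb (positive in the direction of transcription), with height in RPM. Colours separate the promoter, starts of other genes, and distal peaks with and without repeated sequence at the summit. The tall distal peaks of DU-145, at 2.08 to 2.89 RPM, all stand close to the gene, and SKOV-3 has the promoter peak only.

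Over the whole 500 kb window the FOXA1 region had fewer distal peaks than the median gene of chromosome 14 in every line, and in DU-145 more than the median of all genes. There were 20 in DU-145, 6 each in COLO-205 and OVCAR-3, and 0 in SKOV-3, while the median protein-coding gene had 15, 16, 11 and 1 in that order. At least as many were found around 44.6% of genes in DU-145, 74.3% in COLO-205, 69.2% in OVCAR-3 and, with 0 as the value, 100.0% in SKOV-3. Among genes on chromosome 14 the median was 118 in DU-145, 19 in COLO-205, 2 in SKOV-3 and 34 in OVCAR-3. FOXA1 was thus in the lower part of its chromosome in every line, also in DU-145, where 81.0% of chromosome 14 genes had at least as many distal peaks. The window held 24.8 peaks per Mb in DU-145, against 101 per Mb for the chromosome. The window also contains the starts of SLC25A21 and MIPOL1, neighbours with promoter peaks in COLO-205, DU-145 and OVCAR-3 but not in SKOV-3. At a −log10 q of at least 10 the distal peaks of FOXA1 fell to 5 in DU-145 and 2 each in COLO-205 and OVCAR-3. With lists of equal size they fell to 3 in DU-145 and 0 in COLO-205 and OVCAR-3. At a distance of 250 kb DU-145 had 8.

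The distal peaks joined into 27 regions, of which 23 occurred in 1 line, 3 in 2 lines, 1 in 3 lines and 0 in 4. Of the FOXA1 distal peaks, 2 of 6 in COLO-205 overlapped a peak of another line (33.3%, against 15.1% of all distal peaks of that list), 4 of 20 in DU-145 (20.0% against 24.6%) and 3 of 6 in OVCAR-3 (50% against 27.4%). SKOV-3, where 63.6% of all distal peaks overlapped one of another line, had none near FOXA1. With so few peaks these shares do not set the region apart.

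Many distal peaks of FOXA1 lay on repeated sequence, as did many on chromosome 14 in general. For each summit window of 300 bases, the copies of its 16-letter words were counted on chromosomes 14, 19 and 20, and a window with a median of at least 10 copies was called repeated. By this measure, chosen after the sequences were seen, 5 of 6 FOXA1 distal peaks in COLO-205 were repeated (83.3%, against 38.0% of all distal peaks on chromosome 14), 11 of 20 in DU-145 (55% against 50.8%) and 3 of 6 in OVCAR-3 (50% against 45.9%). The shares of DU-145 and OVCAR-3 were thus near those of the chromosome, and that of COLO-205 rests on 6 peaks. In COLO-205 the strongest, at chr14:38126204-38126421 in a TTC6 intron (6.71-fold, −log10 q 12.1), had a median of 169 copies, and the next strongest, at chr14:37639216-37639440 in an SLC25A21 intron (−log10 q 10.1), 219. The third, at chr14:38221027-38221370 (−log10 q 7.53), had 13. The single peak that was not repeated was the shared region at 11.5 kb.

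In OVCAR-3 the strongest distal peak (7.69-fold, −log10 q 18.7), in an SLC25A21 intron, had a median of 102 copies. The following one (chr14:37897492-37897858, −log10 q 10.4) had 88, and the third (chr14:37866827-37867036, −log10 q 7.15) 2. In DU-145 the repeated peaks had a −log10 q of 4.4 to 9.4, and 10 of the 11 lay further than 50 kb from FOXA1. Most DU-145 distal peaks did so, since only 4 of all 20 lay within 50 kb. The strong peaks next to the gene had a median of 1 copy. Without repeated windows 1 distal peak remained in COLO-205, 9 in DU-145 and 3 in OVCAR-3, and the chromosome 14 medians under the same rule were 9, 63 and 17. Of the 4 regions found in several lines, only the one at 11.5 kb remained. How reads with several possible positions were placed is not given in the sources used here, and the part of such reads in these peaks was not tested.

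**Figure D3:**
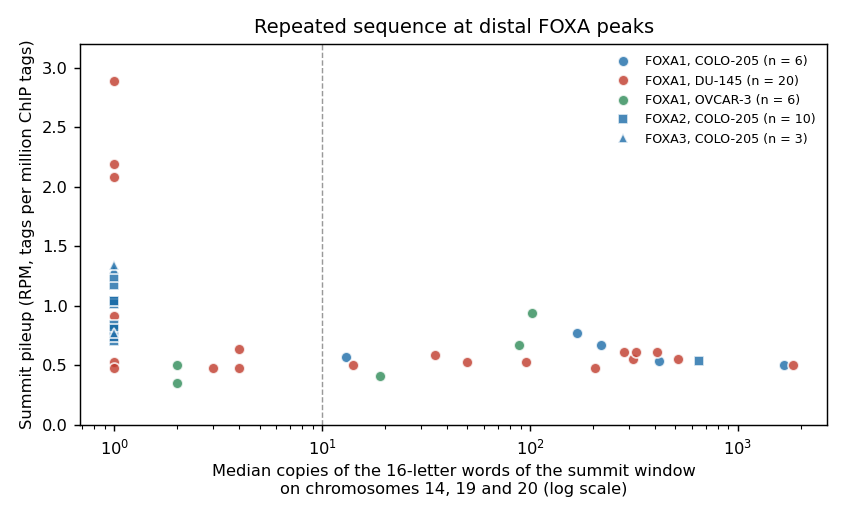
Summit pileup of each distal FOXA peak, in RPM, against the median number of copies of its 16-letter words on chromosomes 14, 19 and 20 (log scale), with the limit of 10 copies as a dashed line. The repeated peaks reach at most 0.935 RPM, while the DU-145 peaks next to FOXA1 at 2.08 to 2.89 have 1 copy.

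FOXA2 was marked in COLO-205 and, weakly, in OVCAR-3. The gene (ENSG00000125798, chr20:22561636-22566093, minus strand) has 2 annotated starts, the main one at 22565210. COLO-205 had 2 promoter peaks, at chr20:22563325-22564863 (5.59-fold, −log10 q 20.3, 51 tags) and at chr20:22565440-22566221 (7.7-fold, −log10 q 28.2, 53 tags), which frame the main start without covering it. The stronger covers the other annotated start. OVCAR-3 had 1 peak of 210 bp (chr20:22565487-22565696, 3.54-fold, −log10 q 6.71, 27 tags) inside the span of the stronger COLO-205 peak. DU-145 and SKOV-3 had none, which at this depth means that no pileup passed the calling limit and need not mean an absence of the mark.

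In scaled units the FOXA2 promoter reached 1.78 RPM (1.33 to 2.33) in COLO-205 and 0.789 (0.52 to 1.15) in OVCAR-3, a ratio of 2.25 with intervals that did not overlap. The COLO-205 value was an ordinary one for a marked promoter, since 30.1% of marked promoters were at or above it and it was 1.08 times the chromosome 20 median. The OVCAR-3 value was low, with 95.8% of marked promoters at or above it. A promoter marked in these 2 lines and no other was found for 2.78% of protein-coding genes. At a −log10 q of at least 10, and with lists of equal size, FOXA2 kept its promoter peak in 1 line and lost it in OVCAR-3.

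COLO-205 was also the only line with distal peaks within 50 kb of FOXA2. They numbered 10 in COLO-205 and 0 in each of the other lines, and none of the 10 overlapped a peak of another line, as was usual in this list, where 15.1% of all distal peaks did. The 10 fell to 5 at a −log10 q of at least 10 and to 2 with lists of equal size. At least 10 were found around 14.5% of genes in COLO-205. Chromosome 20 is dense in peaks in this line, however, at 3.22 times the median chromosome, and 58.5% of its genes reached 10, with a median of 11. By count alone FOXA2 was therefore an average gene of chromosome 20. Counting promoter peaks and those at other starts as well, peaks within 10 kb of the FOXA2 5′ end covered 4157 bp, a coverage reached by 1.17% of all genes and by 1.28% of genes on chromosome 20.

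These distal peaks ranged from 3.17- to 7.42-fold and from 4.98 to 17.0 in −log10 q. The strongest (chr20:22557520-22557912, 31 tags, 1.04 RPM) lay 7.49 kb downstream of the main start in an intron of LINC00261, an lncRNA gene next to FOXA2, and is the CpG-rich FOXA2 window printed above. Of the 10, 6 lay on the 3′ side of the start and 4 on the 5′ side, the latter reaching into LNCNEF, another lncRNA gene. A further 2 COLO-205 peaks lay at LINC00261 starts (8.03-fold, −log10 q 15.8, and 3.86-fold, −log10 q 6.84), where no other line had a peak. In contrast to the distal peaks of FOXA1 in the same line, 1 of the 10 was repeated (10%, against 35.8% of all distal peaks on chromosome 20), and the 9 that remained were matched by 33.8% of chromosome 20 genes, with a median of 6.

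**Figure D4:**
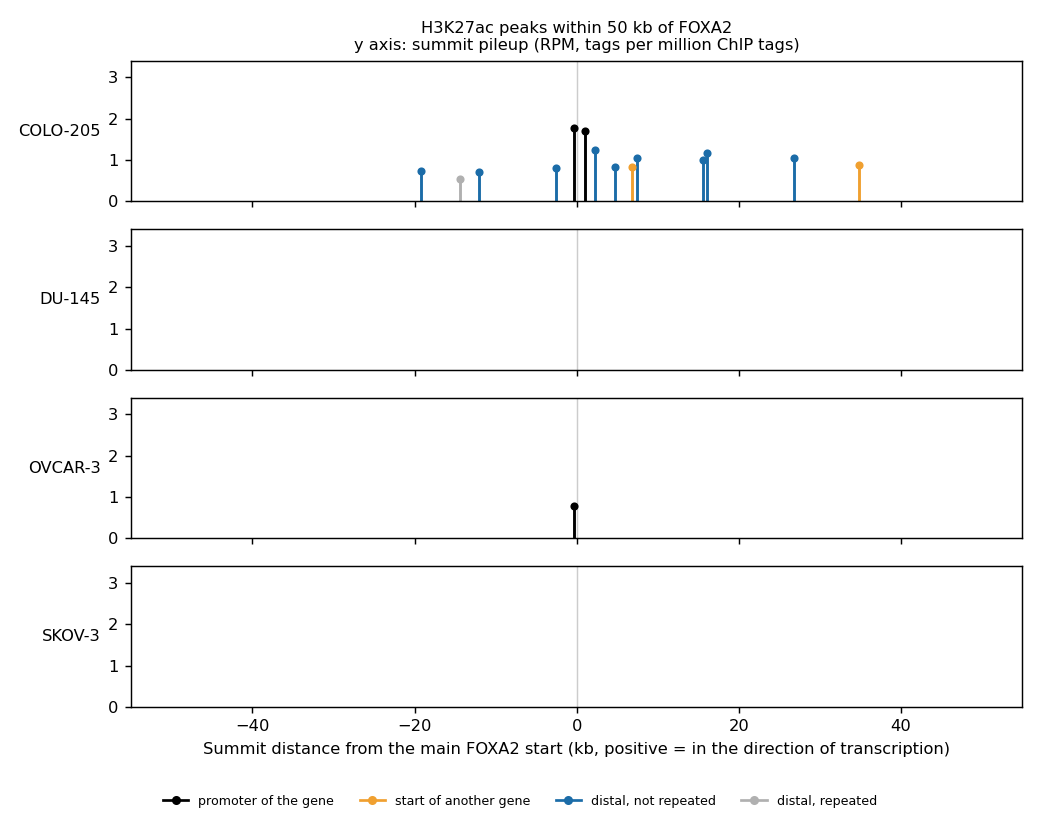
Position of each H3K27ac peak within 50 kb of FOXA2 in the 4 lines, as the distance of its summit from the main start in kb (positive in the direction of transcription), with height in RPM. COLO-205 has 14 peaks, 2 of them at the promoter, OVCAR-3 has 1 at the promoter, and DU-145 and SKOV-3 have none.

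FOXA3 had no peak over its own starts in any line. The gene (ENSG00000170608, chr19:46367247-46377055, plus strand) has 2 starts, the main one at 46367584. The 1 kb rule assigned a promoter peak to it in DU-145 (chr19:46365888-46366287, 2.45-fold, −log10 q 8.27, 66 tags) and in OVCAR-3 (chr19:46365994-46366379, 3.74-fold, −log10 q 20.3, 79 tags). These peaks ended 960 bp and 868 bp before the nearest FOXA3 start, reached into its window by 41 bp and 133 bp, and lay 79 bp and 9 bp from a start of SYMPK, the neighbouring gene for a scaffold protein of mRNA 3′ end processing. At 1.83 (1.42 to 2.33) and 2.31 (1.83 to 2.88) RPM their intervals overlapped. The pattern of DU-145 and OVCAR-3 alone was shared by 10% of genes.

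COLO-205, without a peak at the FOXA3 promoter, was the line with distal peaks near this gene. It had 3, of which the one with the highest −log10 q (chr19:46379959-46380302, 3.68-fold, −log10 q 9.58) lay in unannotated sequence 12.6 kb downstream of the start. Another (chr19:46385440-46385720, 3.45-fold) lay 18.0 kb downstream, and the third (chr19:46375416-46375633, 4.09-fold) in a FOXA3 exon. At a −log10 q of at least 10, and with lists of equal size, 0 of the 3 remained. At least 3 were found around 43.3% of genes in COLO-205, so over all genes this number is a common one. On chromosome 19 the share was 29.1%, with a median of 1, and without repeated windows it was 19.3%. The peaks held 0.772 to 1.34 RPM and 0 of 3 were repeated, against 32.0% of all distal peaks on chromosome 19. In all 4 lines the start of IRF2BP1, a corepressor gene within the window, was marked.

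The distal windows were searched for forkhead words. In DU-145, 1 of 20 FOXA1 windows held TGTTTAC or TGTTTGC on either strand, against 4.58% of all distal windows of that list. In COLO-205 no window did, 0 of 6 for FOXA1, 0 of 10 for FOXA2 and 0 of 3 for FOXA3, against 4.15% of all, and in OVCAR-3 0 of 6 against 4.69%. With so few windows, no difference from the background can be read from these counts. Over whole peaks, whose lengths differ, 4 of 20 FOXA1 peaks in DU-145 held a word, among them the gene body peak and the one 3.47 kb upstream of the start, as did 1 of 6 in OVCAR-3 and none in COLO-205. The share of all whole distal peaks with a word was 7.03% for DU-145, against 6.01% for the OVCAR-3 list and 4.47% for the COLO-205 list. These shares are not matched for peak length, and the longer a peak the more positions it offers a word, so nothing is read from the 4 of 20. The AP-1 word TGANTCA, a different word from the forkhead ones, occurred in 1 of 6 FOXA1 windows and 1 of 10 FOXA2 windows of COLO-205 (4.91% of all), in 1 of 20 of DU-145 (7.9%) and in 1 of 6 of OVCAR-3 (7.29%).

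Genes with the most similar promoter pattern were sought by the Euclidean distance of the log2 fold enrichment over the 4 lines, with 0 for no peak. Among the nearest to FOXA1 were CSK at a distance of 0.41, IL15RA (0.58), RGS3 (0.59) and MIB1 (0.61). Nearest to FOXA2 were GRIN2B (0.07), SERP2 (0.13), PRR5-ARHGAP8 (0.17), RAB20 (0.20) and NUFIP1 (0.24). SERP2, RAB20 and NUFIP1 all lie on chromosome 13, which in COLO-205 is the densest chromosome, at 4.09 times the median. Nearest to FOXA3 were SYNE4, FTCDNL1, STEAP2, AKAP9 and ZNF547, at distances of 0.03 to 0.11. Each distance rests on 4 libraries, and for FOXA2 and FOXA3 on only 2 values above 0.

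Promoters of genes that work with FOXA proteins were marked at shares between slightly below and somewhat above those of all genes, and no test was made. Of 22 partner and co-factor genes, 15 were marked in COLO-205 (68.2%, against 51.3% of all genes), 14 in DU-145 (63.6% against 60.0%), 13 in OVCAR-3 (59.1% against 60.7%) and 9 in SKOV-3 (40.9% against 31.7%). Their median fold was 5.43, 4.77, 7.32 and 4.68 in that order, beside 4.45, 4.65, 7.39 and 5.25 over all marked promoters. Marked in all 4 lines were NR3C1, the glucocorticoid receptor gene, GATA6, CEBPB, KMT2D and NR2F2. GATA4, ONECUT2 and NR5A2 were marked in none.

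Of the partners, 3 were marked in a single line. The share of all genes marked in a single line is not given, so nothing is read from this count. HNF4A (4.68-fold), a regulator of liver and gut genes, was marked in COLO-205 alone. ESR1, the oestrogen receptor gene, was marked in SKOV-3 alone (7.37-fold), and HOXB13, a prostate homeobox gene, in OVCAR-3 alone (3.67-fold). HNF4A lies on chromosome 20, which as stated is dense in COLO-205. NR3C1 had almost equal scaled pileups of 2.83 RPM in DU-145 and 2.86 RPM in OVCAR-3. The progesterone receptor gene PGR was at 4.09-fold in COLO-205 and 3.16-fold in DU-145.

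Endoderm and liver genes known to be under FOXA control had a lower marked share than all genes in each list, a description without a test. Of 18, 6 were marked in COLO-205 (33.3%), 5 in OVCAR-3 (27.8%), 2 in DU-145 (11.1%) and 0 in SKOV-3, against 51.3%, 60.7%, 60.0% and 31.7% of all genes. In OVCAR-3 alone were AFP (6.76-fold), the fetal serum protein gene, APOA1 (4.31-fold), an apolipoprotein gene, and CFTR (5.99-fold), a chloride channel gene. TTR, the transthyretin gene, was marked in DU-145 alone (6.03-fold). In COLO-205 alone were APOB (4.23-fold), another apolipoprotein gene, SHH (4.19-fold), a secreted signal of the gut epithelium, the gut and pancreas homeobox genes CDX2 (6.84-fold) and PDX1 (5.96-fold), and VIL1 (5.66-fold), the brush border protein villin. CDX2 and PDX1 lie on chromosome 13, with 105 peaks per Mb in COLO-205 against 1.28 to 3.07 in the other lines, so their mark and the density of the chromosome cannot be told apart here. The liver genes ALB, TAT, G6PC and CPS1 had no promoter peak in any line.

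Of 17 hormone-responsive epithelial genes with known FOXA1 control, 13 each were marked in DU-145 and COLO-205 (76.5%, against 60.0% and 51.3% of all genes), 6 in SKOV-3 (35.3% against 31.7%) and 10 in OVCAR-3 (58.8% against 60.7%). The shares of SKOV-3 and OVCAR-3 were near those of all genes. The 6 of SKOV-3, XBP1, CCND1, KRT18, KRT8, MUC1 and RARA, were marked in all 4 lines. KRT8 and KRT18 are neighbours, and in COLO-205 and DU-145 both had the same peak values. TFF3, a mucosal trefoil peptide gene (7.2-fold), and KLK3, which encodes prostate-specific antigen (5.1-fold), were marked in COLO-205 alone. SPDEF (2.89-fold), a transcription factor gene of the luminal prostate, was marked in DU-145 alone. AGR2 and UGT2B17 had no peak in any line.

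**Figure D5:**
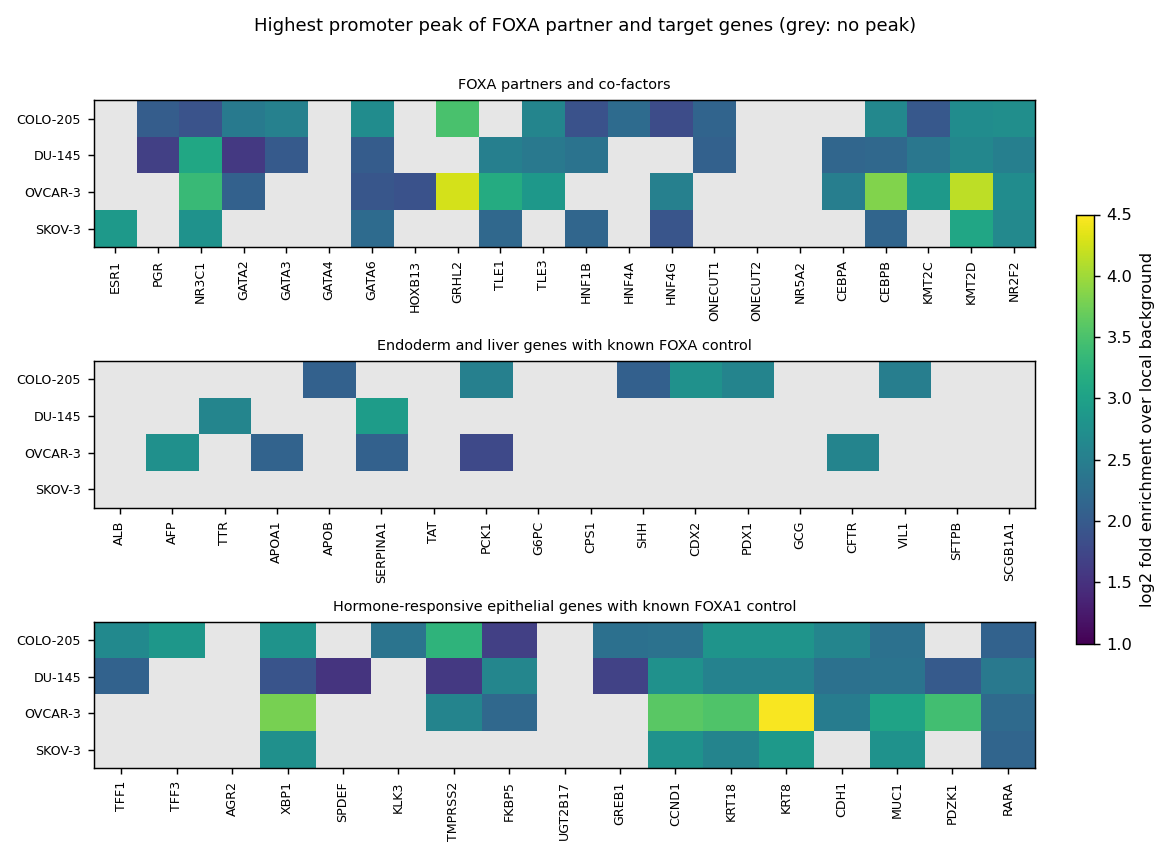
Log2 fold enrichment of the strongest promoter peak of each FOXA partner or target gene (columns) in each line (rows), with grey for no peak, in 3 panels for the 3 lists. Among the partners, HNF4A is coloured in COLO-205 only, and the endoderm and liver panel is mostly grey, with 0 of 18 marked in SKOV-3.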

How the data were processed

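H3K27ac ChIP-seq was performed by the authors in 4 lines, 1 library each. Per the labels and methods, they aligned reads to the hg19 build with Bowtie2 2.1.0 and ran MACS2 2.1.0.20150603 on every library at q < 0.001. The deposited lists give for each peak a score (10 times the −log10 q), a fold enrichment (a ratio to the local background), and −log10 p and −log10 q values. These are not scaled between libraries. A stated merge of peaks under 350 bp apart is not applied in the deposited lists, and they were used as they are.

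The summit pileup was solved from the deposited fold and −log10 p as a whole number of tags, with a tolerance of 0.001 in the −log10 p of the Poisson model, which was possible for 100% of peaks of each list. It was scaled to RPM, tags per 1000000 ChIP tags, with the ChIP tags of each library (36000000 in DU-145, 29800000 in COLO-205, 22400000 in SKOV-3 and 34200000 in OVCAR-3), which were computed from the lowest background and the smallest peak width. This procedure was tested on simulated data. PCR copies are not independent molecules, so intervals cover counting error only.

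Starts came from GENCODE version 44 lifted to GRCh37, the build of the lists, where the authors used version 18. Overlaps required 1 bp. The members and gene lists were chosen with earlier results of these data known. Named were, by −log10 q, the strongest promoter peak per gene and line, the 3 strongest distal peaks of FOXA1 and the strongest of FOXA2 and FOXA3 per line, the shared region of FOXA1, up to 5 similar genes each, and up to 4 examples per gene list, in its order, of genes marked in 1 or in all lines. Some genes are not reported here and are left out of the lists and their counts. Genes and peaks named beyond these were chosen after their values were seen. Alternatives were stricter q, equal list sizes, merging, other windows and overlaps, counting peaks at other starts, and leaving out repeated windows. The candidate mutations of the study were not analysed here. The tools were Python 3.11.15 with matplotlib 3.10.9, pandas 2.3.3, scipy 1.17.1 and numpy 2.4.6.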

Additional observations from a re-analysis of the deposited data

How the results depend on the processing

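Of 129 values recomputed under alternatives, 97 stayed within the limits set for them and 32 moved. Many of the 97 were counts of 0 that stayed 0. A stricter q, equal list sizes, a shorter distance or leaving out repeated windows cannot raise a 0. The 97 are therefore no measure of how stable the other values are. FOXA1 had a promoter peak in 4 lines under every alternative run except equal list sizes, where 3 lines kept it and OVCAR-3 did not. With a −log10 q of at least 10, FOXA2 was marked in 1 line (COLO-205) and FOXA3 in 1 (OVCAR-3), and the distal peaks fell to 2 for FOXA1 in COLO-205, 5 in DU-145 and 2 in OVCAR-3, 5 for FOXA2 in COLO-205 and 0 for FOXA3 in COLO-205. With the strongest peaks of each list, as many as the SKOV-3 list holds, FOXA2 was marked in 1 line and FOXA3 in 0, and the distal peaks were 0, 3 and 0 for FOXA1 in COLO-205, DU-145 and OVCAR-3, 2 for FOXA2 and 0 for FOXA3 in COLO-205. FOXA3 was marked in 0 lines with a promoter window of 500 bp and in 0 where at least 50% of the peak had to lie inside the window. At a distance of 250 kb, FOXA1 had 8 distal peaks in DU-145. With 500 kb around all 3 genes, FOXA2 had 67 in COLO-205 and 7 in OVCAR-3, and FOXA3 had 7 in DU-145, 13 in COLO-205, 2 in SKOV-3 and 17 in OVCAR-3. With peaks at other starts counted, FOXA1 had 10 in OVCAR-3, and FOXA3 had 2 in DU-145, 5 in COLO-205, 1 in SKOV-3 and 3 in OVCAR-3. Leaving out repeated windows, an alternative chosen after seeing the data, gave 1, 9 and 3 for FOXA1 in COLO-205, DU-145 and OVCAR-3, and 1 shared region in place of 4. No paired analysis was possible because each line has a single library.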
